A study of Saccharomyces cerevisiae with 5 samples.

Results

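The spliceosome removes introns from pre-mRNA. It is built on each intron from small nuclear ribonucleoprotein particles (snRNPs) and from proteins that join and leave as the reaction proceeds. A snRNP is a small nuclear RNA with a ring of Sm proteins, or for U6 of the related Lsm proteins, and particle-specific proteins. The mRNAs that encode these proteins are themselves exported from the nucleus and translated like other mRNAs. The 54 genes described here encode spliceosome and snRNP proteins of the budding yeast Saccharomyces cerevisiae. They were taken from a list of gene names, by the gene symbol or synonym that the array platforms give for each spot. No measured value was a criterion, but the list was chosen with earlier results of these data known. All 54 were found by symbol on both platforms, among 5539 named genes on the platform of 4 arrays. Each had 2 spots there, side by side in 1 row, and 1 or 2 spots on the other platform.

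Each of the 5 arrays compared, in 2 channels, the RNA bound to precipitated zz-tagged Yra1 with the RNA bound to precipitated zz-tagged Mex67. Mex67 is the main mRNA export receptor of yeast. Yra1, a nuclear RNA-binding protein, hands mRNA over to it. The question is whether a transcript came down in different amounts with the 2 proteins. The arrays form 1 group with no untagged control and no input RNA, and the labels give no strain or growth condition. They also do not say whether the arrays came from separate cultures, so p-values measure the spread between arrays, which may be technical. Channel 1 held the Yra1 RNA and channel 2 the Mex67 RNA, but neither the numerator of the deposited ratio nor the dye of each channel is known from the labels. A value above or below 0 therefore does not say which precipitate held more of a transcript. Means, counts of signs and tests over arrays take the ratio to have the same direction on every array, which the labels do not state either. All values below are log2 ratios of the 2 channels relative to the median spot of the same array. They are differences between channels and say nothing of how abundant an mRNA was. Replicates 2 to 5 share 1 platform and were tested together. Replicate 1, on the other platform, is given beside them. Replicate 2 stood apart before centring, with an array median of 1.96 on the log2 scale, against -2.81 to -1.45 on replicates 3 to 5.

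None of the 54 genes passed limma's test of the 4 ratios against 0 after Benjamini-Hochberg adjustment over all 5539 genes at a threshold of 0.05, where the share of all genes that passed was 0%. The smallest adjusted p among them was 0.834. At an unadjusted p under 0.05 there was 1 lower member, SNU66, against 3.99% of all genes, and there were 0 higher members, against 1.43% of all genes. The means over the 4 arrays were below 0 for 23 members and above 0 for 31. Their median was 0.06, against -0.02 over all 5539 genes, and the quartiles of the members' means were -0.16 and 0.32, against -0.39 and 0.27 for all genes. Array by array, the members' median was 0.02, 0.12, 0.19 and -0.21 on replicates 2 to 5, with -0.03 on replicate 1. As a group, then, the splicing mRNAs lay on both sides of the array median.

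The spread of a member between arrays was large beside its mean. The median SD over the 4 arrays was 0.71 (all genes 0.77), the median distance of a member's mean from 0 was 0.26 (all genes 0.32), and the 95% interval of limma reached a median of 0.90 to either side of the mean (all genes 0.92). For 17 of the 54 genes it reached more than 1 log2 unit to either side, as it did for 2113 of all 5539 genes. A 2-fold difference between the precipitates lay within the error for those genes. It also did so for some of the other members, such as PRP42, with an interval from -0.36 to 1.35. Only SNU66, PRP2 and CLF1 were below 0 on all 4 arrays, 3 of 54 against 7.13% of all genes, and 0 of 54 were above 0 on all 4 arrays, against 7.11% of all genes. On all 5 arrays 0 members were below 0, against 3.32% of all genes, and 0 were above 0, against 3.29% of all genes. Leaving out replicates 2 to 5 in turn changed the sign of the mean of 9, 8, 10 and 10 members. On replicate 1, 29 of the 54 had the sign opposite to their mean over replicates 2 to 5, and of all genes on both platforms 50.9% did. The plot of all members by array shows these spreads.

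**Figure D1:**
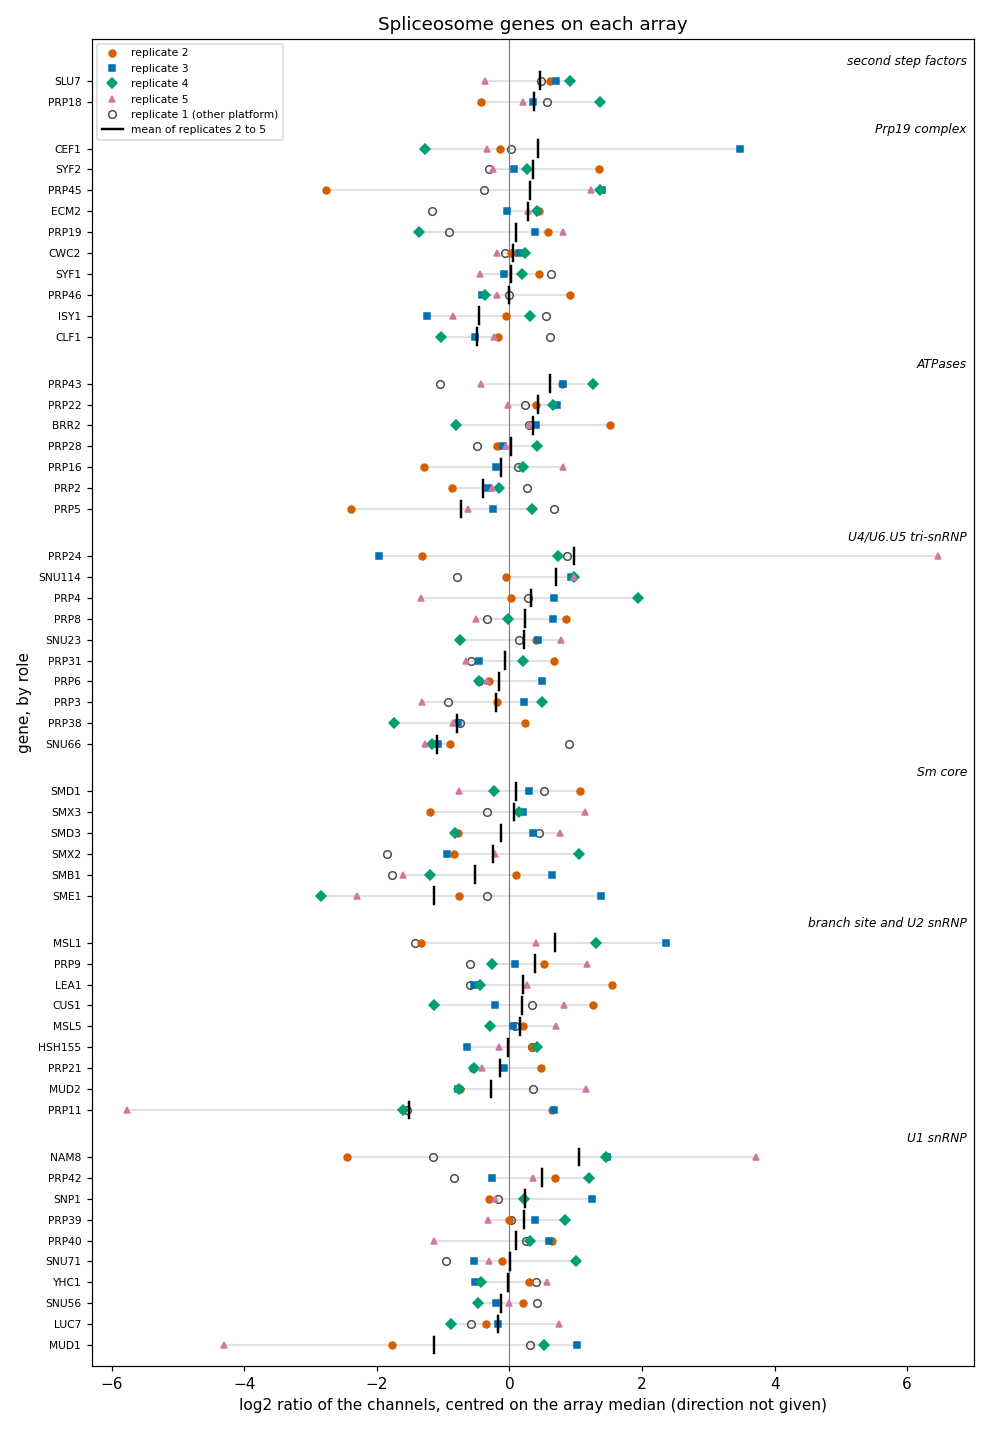
Log2 ratios (x axis, relative to the array median) of the 54 spliceosome genes (y axis, grouped by role and sorted by mean). Filled symbols are replicates 2 to 5, open circles replicate 1 on the other platform, grey lines the range over replicates 2 to 5 and black ticks their mean. PRP24 and PRP11 reach 6.47 and -5.77 on replicate 5, and the 4 filled symbols of SNU66 lie between -1.27 and -0.89 while its open circle is at 0.90.

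The U1 snRNP binds the 5′ splice site first, and 10 members encode its proteins. Their means were below 0 for 4 genes and above 0 for 6, with a median of 0.05, and 0 of the 10 reached an unadjusted p under 0.05. MUD1, the yeast counterpart of the A protein of U1, had the lowest mean, at -1.13 ± 2.44 (SD, n = 4). Its ratios were -1.78, 1.02, 0.53 and -4.30 on replicates 2 to 5 and 0.31 on replicate 1, so the arrays disagreed in sign and replicate 5 carried most of the mean, which was -0.08 without it. NAM8, an RNA-binding U1 protein needed for splicing of some meiotic transcripts, had the highest mean of all 54, at 1.05 ± 2.57. It was at -2.45, 1.47, 1.45 and 3.73 on replicates 2 to 5 and at -1.15 on replicate 1, positive on 3 of the 4 arrays, with a mean of 0.16 without replicate 5. PRP42, one of the paired TPR-repeat proteins of yeast U1, was at 0.69, -0.27, 1.20 and 0.35, a mean of 0.49 ± 0.62, and at -0.84 on replicate 1. Here and below, a value is called shared where another spot close by held the same one, which may be the gene's own second spot (outer spots of a block only). PRP42 shared its value with nearby spots on 3 of the 4 arrays, and its mean was 0.23 with the median of nearby spots removed. Its partner PRP39 had a mean of 0.22 ± 0.50. The remaining U1 genes had means within 0.23 of 0. They were SNP1, the U1-70K counterpart, at 0.23, PRP40, which contacts the branch-site protein, at 0.10, SNU71 at 0.01, YHC1, the counterpart of the C protein of U1, at -0.02, SNU56 at -0.12 and LUC7, which affects the choice of 5′ splice site, at -0.17.

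The branch site is recognised first by MSL5 and MUD2 and then by the U2 snRNP, together 9 members. Means were below 0 for 4 and above 0 for 5, with a median of 0.17. PRP11, a subunit of the SF3a complex of U2, had the lowest mean of all 54 genes, at -1.52 ± 3.03 (SD, n = 4). Its ratios were 0.64, 0.67, -1.60 and -5.77 on replicates 2 to 5 and -1.55 on replicate 1, 2 above and 2 below 0 among the 4 arrays. Without replicate 5 its mean was -0.10. Both spots of PRP11 held shared values on replicates 2 and 5, and the median of nearby spots on replicate 5 was -5.36. The other SF3a genes were nearer 0, PRP9 at 0.38 ± 0.61 and PRP21 at -0.14 ± 0.45. MSL1, the counterpart of the B″ protein of U2, had the highest mean of the group, 0.68 ± 1.57, from -1.34, 2.36, 1.30 and 0.41 on replicates 2 to 5, with -1.43 on replicate 1. Without replicate 3 the mean of MSL1 was 0.12. LEA1, whose product, the A′ protein of U2, pairs with Msl1 in the particle, was at 1.54, -0.53, -0.44 and 0.27, opposite in sign to MSL1 on 3 of the 4 arrays. The SF3b genes HSH155 and CUS1 had means of -0.02 ± 0.49 and 0.18 ± 1.07, and CUS1 was at -0.17 without replicate 2. MSL5, the branch-point binding protein, was at 0.17 ± 0.41. MUD2, its U2AF65-like partner, was at -0.74, -0.78 and -0.77 on replicates 2 to 4 and at 1.15 on replicate 5.

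The Sm proteins form the ring around the U1, U2, U4 and U5 RNAs, and 6 of their genes are members. Means were below 0 for 4 and above 0 for 2, and the median, -0.18, was the lowest of the role groups, but was -0.02 with the median of nearby spots removed, where that of the ATPases was lower, at -0.03. SME1 was at -0.77, 1.38, -2.84 and -2.30 on replicates 2 to 5, a mean of -1.13 ± 1.89 (SD, n = 4), and at -0.34 on replicate 1, below 0 on 4 of the 5 arrays. SMD1 had the highest mean, 0.09 ± 0.78, from 1.06, 0.29, -0.23 and -0.76, with 0.52 on replicate 1. It held shared values on 3 of the 4 arrays. SMB1 was at -0.52 ± 1.06, SMX2, the SmG gene, at -0.24 ± 0.92, SMD3 at -0.12 ± 0.80 and SMX3, the SmF gene, at 0.07 ± 0.96. On replicate 1 the lowest values of all 54 members belonged to SMX2, at -1.85, and SMB1, at -1.77. The products of these genes occur together in 1 ring, but the ratios of their transcripts lay on both sides of 0 on each of the 5 arrays. The group median was -0.77, 0.32, -0.53 and -0.49 on replicates 2 to 5.

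**Figure D2:**
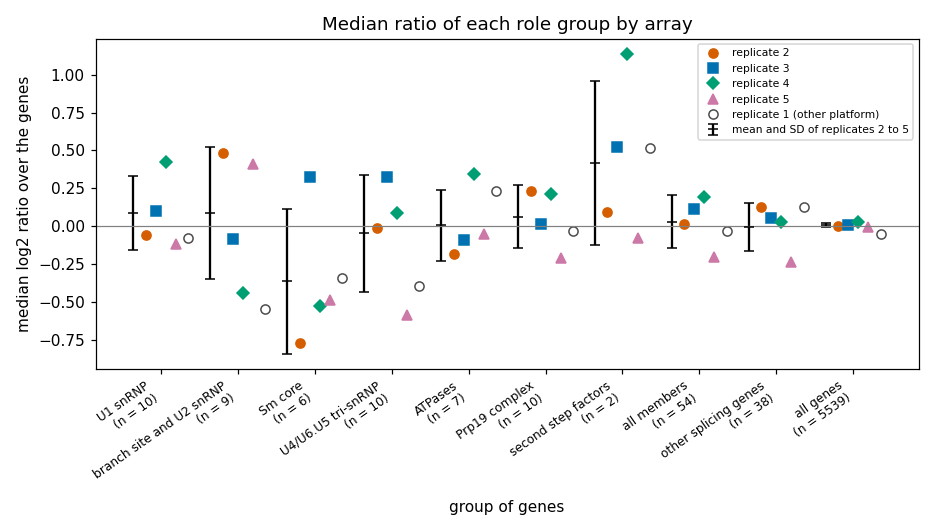
Median log2 ratio (y axis) over the genes of each role group, of all 54 members, of 38 other splicing genes and of all 5539 genes (x axis, number of genes in brackets), with a symbol for each array and a bar for the mean and SD of replicates 2 to 5. The medians of each role group fall on both sides of 0 among the 4 arrays, and the Sm group is below 0 on 3 of them.

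The U4/U6.U5 tri-snRNP brings the catalytic RNAs to the intron, and 10 members encode its proteins or the U6 annealing factor. Means were below 0 for 5 and above 0 for 5. SNU66, a tri-snRNP protein, was the member with the smallest p. It was at -0.89, -1.07, -1.17 and -1.27 on replicates 2 to 5, a narrow range, with a mean of -1.10 ± 0.16 (SD, n = 4), a 2.14-fold difference between the channels, an interval from -1.83 to -0.37 and an adjusted p of 0.834 by limma. Replicate 1 was opposite, at 0.90, the highest value of any member on that array. Both spots of SNU66 were below 0 on each of the 4 arrays, from -1.62 to -0.61. The median of the nearby spots of other genes also lay below 0 on replicates 3 to 5, and with that median removed SNU66 was at -0.99, -0.28, -0.32 and -0.15 on replicates 2 to 5, a mean of -0.44 ± 0.38.

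SNU114 encodes the GTPase of U5 that resembles translation elongation factor 2. It was at -0.05, 0.92, 0.97 and 0.98 on replicates 2 to 5, a mean of 0.71 ± 0.50 (SD, n = 4), the second smallest p of the members, and at -0.79 on replicate 1. On replicate 2 its spots lay apart, at 0.74 and -0.84. PRP38, a tri-snRNP protein needed for activation, was at 0.24, -0.78, -1.75 and -0.86, a mean of -0.79 ± 0.81, and at -0.75 on replicate 1, below 0 on 4 of the 5 arrays. Nearby spots shared its value on 3 of the 4 arrays. PRP38 was the 1 member at an unadjusted p under 0.05 when replicate 1 was added to the fit, with a mean of -0.78, where 5.13% of all genes reached it. With the median of nearby spots removed its mean was -0.29 ± 0.55. PRP24, the U6 annealing factor, had the widest spread of all members, with -1.32, -1.97, 0.73 and 6.47 on replicates 2 to 5, a mean of 0.98 ± 3.84, and 0.87 on replicate 1. Both of its spots gave the high value on replicate 5, 0.07 apart, and without that array its mean was -0.85. PRP8, the large U5 protein at the catalytic centre, was at 0.24 ± 0.62. PRP4 was at 0.32 ± 1.36 and PRP3 at -0.20 ± 0.80, both U4/U6 proteins. PRP31 was at -0.06, SNU23 at 0.21 and PRP6, which bridges U5 and U4/U6, at -0.16.

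The ATPases remodel RNA and protein contacts at each step, and 7 members encode them. Means were below 0 for 3 and above 0 for 4, with a median of 0.02. In the order in which they act, PRP5, which acts when U2 joins, was at -2.40, -0.24, 0.35 and -0.63 on replicates 2 to 5, a mean of -0.73 ± 1.18 (SD, n = 4), the lowest of the group, and at 0.67 on replicate 1. Replicate 2 carried it, and the mean was -0.18 without that array. PRP28, which exchanges U1 for U6 at the 5′ splice site, was at 0.02 ± 0.26, and shared its value with nearby spots on all 4 arrays. BRR2, which unwinds U4 from U6, was at 0.35 ± 0.95, or -0.04 without replicate 2. PRP2, which activates the first step, was at -0.86, -0.33, -0.16 and -0.27, a mean of -0.40 ± 0.31, below 0 on the 4 arrays but at 0.26 on replicate 1. PRP2 also held shared values, on 3 of the 4 arrays. PRP16, which acts between the steps, was at -0.12 ± 0.88. PRP22, which releases the mRNA, was at 0.39, 0.71, 0.66 and -0.03, a mean of 0.43 ± 0.34, and at 0.23 on replicate 1. Its values were shared on 3 of the 4 arrays, and its spots on replicate 2, at 1.97 and -1.18, were the farthest apart of any member. With the median of nearby spots removed its mean was -0.37 ± 0.82, opposite in sign. PRP43, which takes the spent spliceosome apart and also works in ribosome synthesis, had the highest mean of the group, 0.61 ± 0.72, from 0.79, 0.81, 1.26 and -0.43. Its spots on replicate 4 were at 2.64 and -0.11, its mean without that array was 0.39, and it was at -1.04 on replicate 1.

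The Prp19 complex and the proteins around it stabilise the active site, and 10 members belong there. Means were below 0 for 3 and above 0 for 7, with a median of 0.08. CLF1, a TPR-repeat scaffold protein, had the lowest mean, at -0.18, -0.53, -1.03 and -0.24 on replicates 2 to 5, a mean of -0.49 ± 0.39 (SD, n = 4). It had no shared value on any array, but its ratio on replicate 1 was 0.61. CEF1, the counterpart of Cdc5 in other organisms, had the highest mean, 0.43 ± 2.09, from -0.14, 3.48, -1.27 and -0.33, with 0.02 on replicate 1. Replicate 3 alone was high, in both spots, at 3.24 and 3.73, and without it the mean was -0.58. PRP45, the counterpart of human SKIP, was at -2.76 on replicate 2 and at 1.39, 1.36 and 1.23 on replicates 3 to 5, a mean of 0.31 ± 2.05, or 1.33 without replicate 2. The other 7 were PRP19, the ubiquitin ligase that names the complex, at 0.10 ± 0.99, ISY1 at -0.46 ± 0.71, SYF1 at 0.03 ± 0.38, SYF2 at 0.36 ± 0.70 (0.03 without replicate 2), ECM2 at 0.27 ± 0.22, CWC2 at 0.05 ± 0.18 and PRP46 at -0.01 ± 0.63. PRP18 and SLU7 act in the second step, exon ligation, and both had means above 0. SLU7 was at 0.61, 0.70, 0.91 and -0.36, a mean of 0.46 ± 0.56, with 0.47 on replicate 1, above 0 on 4 of the 5 arrays. PRP18 was at -0.43, 0.35, 1.37 and 0.20, a mean of 0.38 ± 0.74, with 0.56 on replicate 1, also above 0 on 4 of the 5.

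Of 41 other splicing genes listed beside the members, 38 were on the platform of 4 arrays. YSF3, LSM3 and HUB1 had no named spot there. Means were below 0 for 19 and above 0 for 19, with a median of 0.00, and 0 of the 38 passed limma's test over all genes or reached an unadjusted p under 0.05. The 3 of smallest p were DIB1, a tri-snRNP protein gene, at -0.63 ± 0.35, CWC23, a DnaJ-like protein gene, at -0.98 ± 1.47, and RSE1, an SF3b gene, at 0.60 ± 0.63 (SD, n = 4 each). DIB1 was below 0 on the 4 arrays, with a shared value on replicate 5, and was at 0.48 on replicate 1. SNU66 of the same particle had the same signs, but it alone of the 10 tri-snRNP members was below 0 on all 4. With the median of nearby spots removed DIB1 was at -1.02, 0.21, -1.24 and 0.00 on replicates 2 to 5. CWC23 rested on replicate 2, at -3.17, and had a mean of -0.25 without it. The tagged proteins' own transcripts lay within the spread between arrays, YRA1 at 0.23 ± 0.88 and MEX67 at -0.23 ± 0.78. MEX67 shared its value with nearby spots on 3 of the 4 arrays.

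How far a member's ratio followed its place on the array was measured by the median of the spots of other genes within 2 rows and 2 columns in the same block. Across the 54 members, Pearson r between a gene's ratio and that nearby median was 0.82, 0.72, 0.71 and 0.83 for replicates 2 to 5, and across all genes it was 0.78, 0.64, 0.60 and 0.74. Part of this is fixed by values that are identical in nearby spots. Among the 31, 44, 41 and 27 members with no such value on replicates 2 to 5, r was 0.78, 0.71, 0.69 and 0.67. These are descriptions across genes that share an array and its surface, not replicates. Between any 2 of these 4 arrays, the members correlated with r from -0.25 to 0.27, and all genes from -0.04 to 0.13. The 2 adjacent spots of a member correlated within an array with r from 0.74 to 0.96, and those of all genes with 2 spots from 0.75 to 0.89. Part of this, too, is fixed by identical values in both spots of a gene. The part of the array surface in any one result was not tested.

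**Figure D3:**
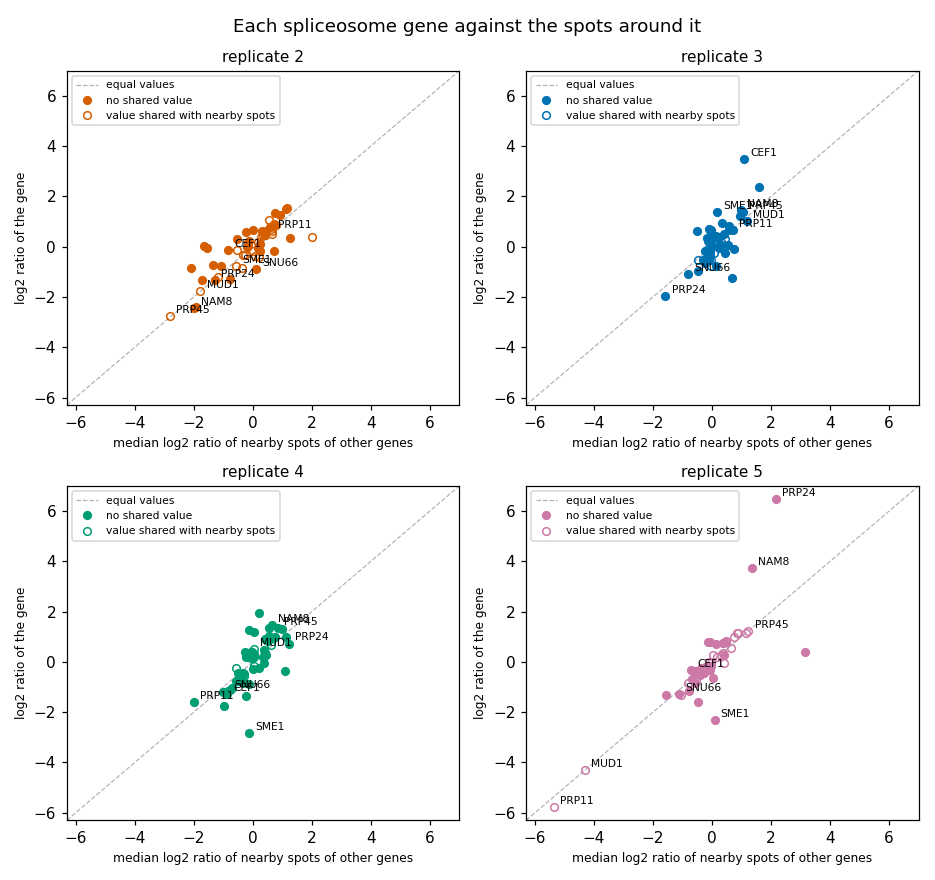
Log2 ratio of each of the 54 genes (y axis) against the median log2 ratio of nearby spots of other genes (x axis), with 1 panel for each of replicates 2 to 5. Open symbols are genes with a value shared with nearby spots, and the dashed line marks equal values. MUD1 and PRP11 on replicate 5 and PRP45 on replicate 2 lie near the line, while SME1 on replicates 4 and 5, CEF1 on replicate 3 and PRP24 on replicate 5 lie away from it.

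With the nearby median removed, the mean of 37 of the 54 members moved closer to 0, and 68.7% of all genes did the same. The sign changed for 13 members, 24.1% of them, against 26.1% of all genes. The low mean of MUD1 was then 0.08 ± 0.28 (SD, n = 4) and that of PRP11 -0.02 ± 0.32. On 3 of the 4 arrays MUD1 shared its value with nearby spots, among them the -4.30 of replicate 5 in both spots, where the nearby median was also -4.30. The high ratios of PRP45 on replicates 3 to 5 and its low one on replicate 2 left 0.04, 0.36, 0.50 and 0.00 on replicates 2 to 5. SME1 kept most of its difference, at -0.20, 1.21, -2.72 and -2.39 on replicates 2 to 5, a mean of -1.03 ± 1.87. CEF1 on replicate 3 was at 2.39 and PRP24 on replicate 5 at 4.31. At an unadjusted p under 0.05 there was then 1 lower member, PRP5 at -0.47 ± 0.29, against 2.8% of all genes, and 1 higher member, PRP4 at 0.95 ± 0.94, against 1.9% of all genes. Neither passed over all genes.

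On the platform of 4 arrays, outer spots of a block often held a deposited value identical to that of another spot nearby. Where that spot belonged to another gene, the value may not be the ratio of a single gene. The origin of the identical values is not known from the labels. The other spot could also be the gene's own second spot, and the counts of shared values do not separate these cases. Of the 54 members, 24 had no such value on any array, 13 had one on 1 or 2 arrays and 17 on 3 or 4. Of all genes 48.5% had none, 31.8% had one on 1 or 2 arrays and 19.7% on 3 or 4, against 31.5% of the members. The 24 free of them had means from -0.52 to 1.05, 9 below 0 and 15 above, with a median of 0.13. Among them were NAM8, PRP24, CEF1, CLF1, PRP43 and SLU7. With shared values left out, 37 members still had at least 3 arrays, and SNU66 was at -0.996, still the only member of the 37 at an unadjusted p under 0.05, against 5.56% of all genes left.

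NAM8 and MSL1, the members with the highest means of the U1 and U2 groups, lay close together on the slide, in rows 9 and 10 of block 30. Of the other splicing genes, IST3, DBR1, LSM6 and LSM7 lay in rows 10, 12, 5 and 16 of the same block. They were looked up after the values had been seen. IST3, a gene of the RES complex, was at -2.08, 1.48, 0.82 and 3.88 on replicates 2 to 5, and DBR1, the lariat debranching enzyme gene, at -1.86, 1.05, 1.22 and 3.52. LSM6, farther off, was at -2.15, 0.45, 0.51 and -1.75, and LSM7 at -3.05, -0.07, 0.18 and 0.23, both genes of Lsm proteins, the Sm relatives that bind U6. All 6 genes were below -1 on replicate 2, where 38.4% of all genes lay more than 1 from 0 in either direction. Around their spots on that array, the median of nearby spots of other genes ran from -2.45 to -1.64. Some of those nearby spots belonged to others of the 6 genes. Whether the low values were particular to splicing genes was not tested. On replicates 3 to 5 NAM8, MSL1, IST3 and DBR1 were above 0, though MSL1 on replicate 5 lay well below the other 3, while LSM6 and LSM7 had both signs. On replicate 1, of the other platform, NAM8, MSL1, IST3 and DBR1 were at -1.15, -1.43, -0.06 and -1.12. Without replicate 2, NAM8 had a mean of 2.22 and MSL1 of 1.36, and both reached an unadjusted p under 0.05, as did PRP45, SNU114, PRP38 and SNU66, 6 of 54 against 6.14% of all genes. With the nearby median removed, NAM8 had a mean of 0.80 ± 1.18 and MSL1 of -0.32 ± 1.63 (SD, n = 4). The order of genes in the RefSeq table of assembly R64 makes SMD1 and PRP38 neighbours on a chromosome, and likewise MSL5 and CLF1. Their means did not pair, at 0.09 and -0.79 for the first pair and 0.17 and -0.49 for the second.

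**Figure D4:**
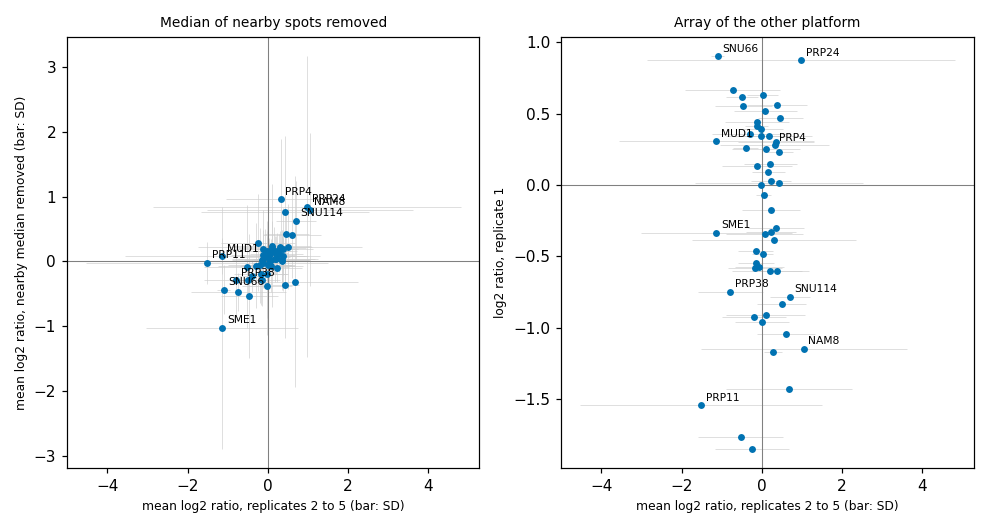
Mean log2 ratio over replicates 2 to 5 of each of the 54 genes (x axis, bars SD) against its mean with the nearby median removed (left y axis, bars SD) and against replicate 1 on the other platform (right y axis). On the left axis MUD1 and PRP11 lie near 0 and SME1 at -1.03, and on the right 29 of the 54 genes lie in the quadrants of opposite sign.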

How the data were processed

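The authors deposited 1 value per spot, taken here as a log10 ratio of the 2 channels. This scale was inferred: 10 raised to the value gave whole-number ratios (terms up to 3000) for 1.65 to 18.4% of 2000 spots drawn per array, against at most 0.65% with base 2 or e. Of the scanner, background correction, normalization and numerator nothing is stated in the labels. Before centring, the array medians of replicates 1 to 5 were 0.32, 1.96, -2.81, -1.45 and -1.59 (log2). After conversion to log2, each array's median over all spots was subtracted and a gene's spots were averaged. Symbols from the platform annotation were updated through RefSeq (R64). Genes with values on at least 3 arrays were fitted with limma 3.58.1 (R 4.3.3, lmFit and eBayes, two-sided). The script was tested on simulated data. Replicates were numbered in accession order. The titles of replicates 3 and 5 share a code of unstated meaning. The members and lists were chosen with earlier results of these data known. Values on every array are given for the 12 members of smallest p and for the highest and lowest mean of each role. The number of arrays limits the precision. Alternatives changed the centring, scaling, arrays, weights, moderation, spot summary and position handling. A value counted as shared where a spot in the outer 3 rows or columns of a block had the same deposited value as another within 2 rows and 2 columns. That other spot could be the second spot of the same gene.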

Additional observations from a re-analysis of the deposited data

Results flagged for a closer look

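On 5 of the 54 members 1 of the 4 arrays of a platform stood far from the other 3 by Dixon's criterion, which chance alone meets in about 1 of 20 groups, and 6.61% of all genes met it. PRP45 was at -2.76 on replicate 2, against 1.23 to 1.39 on the others. PRP46 was at 0.92 on replicate 2, against -0.41 to -0.19. It held shared values on replicates 2, 3 and 5. With the nearby median removed PRP46 was at 0.20, -0.32, -1.48 and 0.06 on replicates 2 to 5, so replicate 4 then lay farthest from 0. SNU114 was at -0.047 on replicate 2, against 0.92 to 0.98, with a mean of 0.96 without that array. MUD2 was at 1.15 on replicate 5, against -0.78 to -0.74, and its mean without that array was -0.77. PRP6 was at 0.49 on replicate 3, against -0.46 to -0.32. Both of its spots held shared values on replicates 2, 4 and 5. With the nearby median removed PRP6 was at 0.00, 0.07, 0.00 and 0.00 on replicates 2 to 5.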

How the results depend on the processing

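Under all 15 alternatives run, 0 members and 0 of all genes tested passed the adjusted threshold in limma. The count of members at an unadjusted p under 0.05 was 1 as reported, 2 with replicates 3 and 5 averaged first (SME1 beside SNU66), 4 with the sign of replicate 2 turned (MSL1, NAM8, PRP38 and PRP45), 2 with the nearby median removed (PRP4 and PRP5) and 3 with array weights (PRP38, SNU114 and SNU66). The shares of all genes in these 4 settings were 4.53, 5.60, 4.69 and 6.63%. Leaving out 1 array gave 1 to 6 members, the 6 without replicate 2, against 4.17 to 6.14% of all genes. The median of the members moved by less than its SD between arrays, 0.17, under every alternative. With replicate 2 turned 17 members changed sign. Of 793 single values under the alternatives, 8 moved by more than the SD of their gene. This count does not measure robustness. A mean with 1 array left out could not move that far, nor could means under settings that leave them unchanged or nearly so. Values of a gene on a minimum of 2 arrays equalled the reported ones, because no array lacked a value.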
